A study of Rattus norvegicus with 6 samples.

Results

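Beta cells were examined in single-cell RNA sequencing of islets isolated from the pancreas of 6 male Wistar rats. The young group was 2 months old on a normal diet, the old group was 20 months old on a normal diet, and the HFHF-old group had eaten a high-fat high-fructose diet from 2 to 20 months of age, with 2 rats in each group. The pancreas was digested with collagenase P through the bile duct, islets were taken from a density gradient and dissociated, and a 3′ droplet library was made from each rat. Beta cells were chosen by a rule on transcripts. A barcode was kept with at least 200 detected genes and at most 25% of its UMIs (unique molecular identifiers, each 1 captured transcript) from mitochondrial genes. It was called a beta barcode when Ins1 and Ins2, the insulin genes, gave at least 20% of its UMIs and more than each of Gcg, Ppy with Pyy, and Sst, and when it held no UMI of Ptprc, the leukocyte gene CD45. This gave 1797 beta barcodes among 75981 kept barcodes (2.37%) of 78024 in all. The levels of these 7 genes therefore chose the members and are given below as a description, with no test.

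Beta cells are the insulin-secreting cells of the pancreatic islet. Glucose enters through the transporter encoded by Slc2a2, its oxidation closes ATP-sensitive potassium channels, and the calcium that then enters drives the release of granules in which proinsulin has been cut to insulin. The identity of the cells depends on transcription factors such as Pdx1, Nkx6-1 and Mafa, and islet amyloid polypeptide, the product of Iapp, is packed and released with insulin. Rats and mice carry a pair of insulin genes, Ins1 and Ins2.

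The 250 bases before the start of Ins1, Ins2 and Iapp are shown because the balance between Ins1 and Ins2 differed between rats. The insulin genes were part of the rule, and Iapp is a beta cell marker outside it. They come from the RefSeq table of build GRCr8, whereas the counts were made on Rnor_6.0. Capitals mark TAAT (ATTA on the other strand), the core recognized by homeodomain factors such as Pdx1, and CATCTG, which reads CAGATG on the other strand, a form of E-box. Other forms of E-box were not searched. Each runs 5′ to 3′ toward the gene, from chr1:261185869-261186118 on the plus strand for Ins1, chr1:207273806-207274055 on the minus strand for Ins2 and chr4:176967847-176968096 on the plus strand for Iapp.
Ins1: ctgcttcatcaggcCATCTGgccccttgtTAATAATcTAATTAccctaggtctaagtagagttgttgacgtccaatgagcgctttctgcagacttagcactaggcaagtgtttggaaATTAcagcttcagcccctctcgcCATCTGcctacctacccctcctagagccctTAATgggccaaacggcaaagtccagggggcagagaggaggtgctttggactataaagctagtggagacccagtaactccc
Ins2: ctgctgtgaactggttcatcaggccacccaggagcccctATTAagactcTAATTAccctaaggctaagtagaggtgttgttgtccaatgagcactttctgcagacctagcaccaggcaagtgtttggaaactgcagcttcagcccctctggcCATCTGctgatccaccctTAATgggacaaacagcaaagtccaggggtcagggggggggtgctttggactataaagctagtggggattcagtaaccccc
Iapp: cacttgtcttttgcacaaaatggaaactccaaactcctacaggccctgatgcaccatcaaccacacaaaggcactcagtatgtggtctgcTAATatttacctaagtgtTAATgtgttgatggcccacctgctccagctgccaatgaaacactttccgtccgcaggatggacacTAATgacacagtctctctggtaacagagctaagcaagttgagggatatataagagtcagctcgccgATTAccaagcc

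Ins1 held 6 TAAT or ATTA matches, some of which overlap, and 2 CATCTG or CAGATG matches. Ins2 held 4 and 1, and Iapp held 4 and 0. Among 33469 RefSeq promoters of the same length, 57.0% held TAAT or ATTA, 10.8% held 4 or more, and 14.0% held CATCTG or CAGATG. The Ins1 and Ins2 windows matched at 209 of 262 alignment columns (79.8%), with an E-box at -110 in Ins1 and -98 in Ins2 and a TAAT at -80 in both, counted back from the gene start. The Iapp window matched Ins1 at 49.1% and Ins2 at 51.3% of columns. These matches describe the letters and are not binding sites.

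The 6 libraries held 77387928 to 166875258 UMIs each. Most kept barcodes were not endocrine, and 46466 of them held a Ptprc UMI. By the same rule with the other hormones, 1071 barcodes were alpha (Gcg), 777 were PP (Ppy and Pyy) and 17 were delta (Sst). A set of 636 barcode sequences occurred in more than 1 library, and none was a beta barcode in more than 1. A further 937 barcodes passed every part of the beta rule except that on Ptprc, 473 of them in young 2. No caller of doublets was run, so a beta barcode could hold more than 1 cell.

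Beta barcodes were unevenly spread over the rats. Young 1 gave 97 of them, young 2 gave 417, old 1 gave 293, old 2 gave 773, HFHF-old 1 gave 213 and HFHF-old 2 gave 4. Of the kept barcodes in each rat this was 0.554% (95% exact interval 0.450 to 0.676), 4.04% (3.67 to 4.44), 3.92% (3.49 to 4.38), 4.71% (4.39 to 5.04), 1.70% (1.48 to 1.94) and 0.0341% (0.00929 to 0.0872), in the same order. The intervals cover counting error only. Each of the HFHF-old rats was below each of the old rats, whereas the young rats lay on either side of HFHF-old 1. That order did not hold by depth, since barcodes of 2000 or more genes made 1.29% of kept barcodes in HFHF-old 1 and 0.628% in old 1, and those of 1000 or more made 1.32% and 0.976%.

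By group the share was 2.30% ± 2.46 (SD, n = 2) in young, 4.31% ± 0.559 (SD, n = 2) in old and 0.867% ± 1.18 (SD, n = 2) in HFHF-old rats. In the two-sided exact permutation test, p was 0.333 between HFHF-old and old rats, 0.667 between old and young rats and 0.667 between HFHF-old and young rats, and 2 rats against 2 cannot go below 0.333. At a limit of 10% insulin the shares were 0.623% and 10.0% in the young rats and 4.44% and 5.33% in the old rats, and with at least 1000 genes 0.320% and 2.94% against 0.976% and 2.03%, so that under both settings the young mean lay above the old mean. Among barcodes that passed the rule for any of the hormones, beta barcodes made 23.3%, 48.7%, 64.7%, 46.5%, 80.1% and 66.7% in young 1, young 2, old 1, old 2, HFHF-old 1 and HFHF-old 2. On this denominator the HFHF-old rats were the highest, but the value of HFHF-old 2 was 4 of 6 barcodes, so its rank above old 1 is uncertain. The exact permutation p was 0.333 between HFHF-old and old rats, 0.667 between old and young rats and 0.333 between HFHF-old and young rats. The share of kept barcodes also moves with how many immune, acinar and other cells came through the islet preparation, whose part in the result was not tested.

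The beta barcodes fell into ranges of very different depth. Those with under 1000 detected genes were 863 of the 1797 (48.0%) but held 4.67% of their UMIs. Those with 2000 or more genes were 636 (35.4%) and held 89.7% of the UMIs. The middle range held 298 (16.6%) and 5.63%. Sums over a rat therefore describe mainly its deep barcodes, of which there were 51, 100, 47, 275, 161 and 2 in young 1, young 2, old 1, old 2, HFHF-old 1 and HFHF-old 2.

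The median UMIs per beta barcode were 17944 in young 1, 6414 in young 2, 3783 in old 1, 2897 in old 2, 36867 in HFHF-old 1 and 12325 in HFHF-old 2. The medians of detected genes were 2765, 1381, 647, 654, 4824 and 2520 in the same order. HFHF-old 1 was the deepest per barcode and both old rats were the shallowest.

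**Figure D1:**
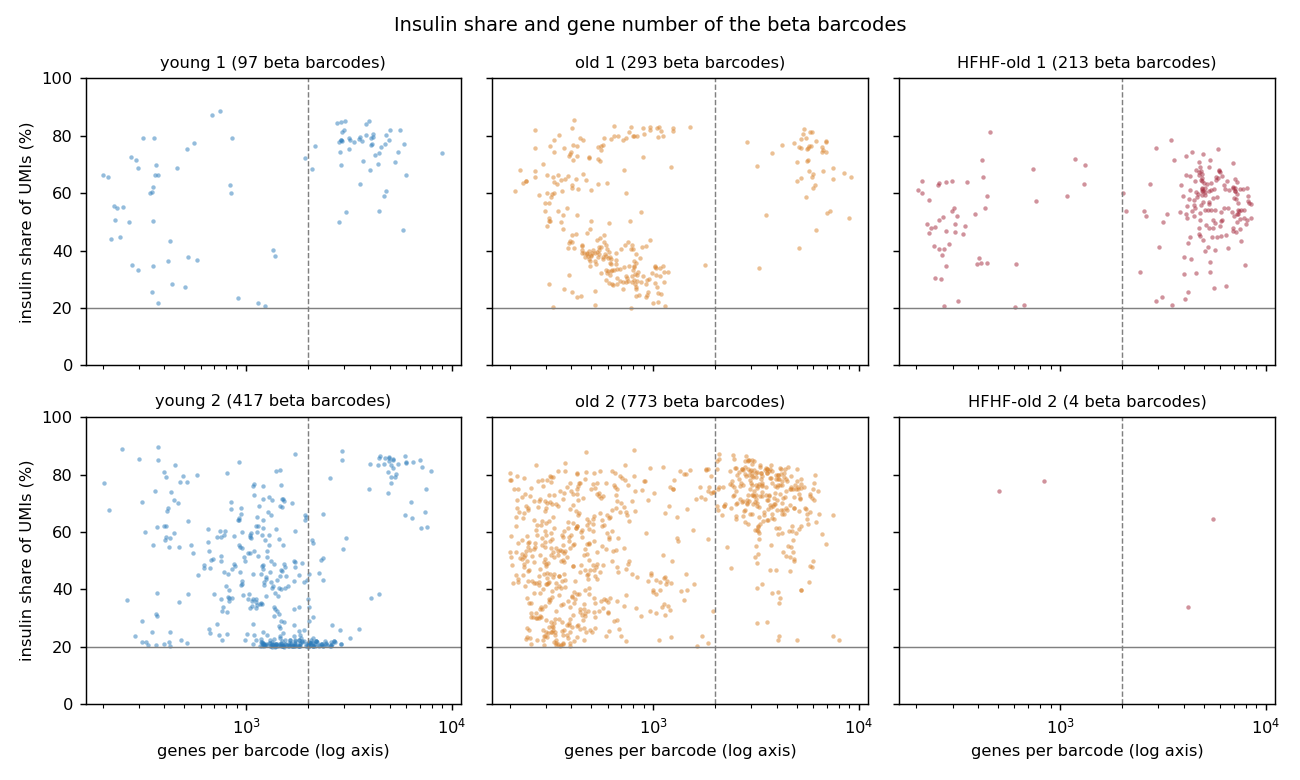
Detected genes per beta barcode (x, log axis) against the percent of its UMIs from Ins1 and Ins2 (y), with 1 point per barcode and 1 panel per rat, the 20% limit of the rule as a solid line and 2000 genes as a dashed line. Most of the 161 deep barcodes of HFHF-old 1 sit apart from its shallow ones, while young 2 has a dense band of barcodes just above the 20% limit.

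Insulin transcripts took over 50% of the summed beta UMIs in every rat. Ins1 and Ins2 together gave 75.5% of the summed UMIs in young 1, 67.3% in young 2, 67.6% in old 1, 70.4% in old 2, 57.0% in HFHF-old 1 and 59.7% in HFHF-old 2. Medians over barcodes were 70.8%, 38.4%, 47.5%, 61.5%, 54.8% and 69.5%. These shares were part of the rule and describe the barcodes it chose.

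Just below the limit, at 18 to 20% insulin, young 2 had 301 barcodes, and just above it, at 20 to 22%, it had 111. The other rats had 0 to 14 below and 0 to 16 above. The young 2 barcodes on both sides also carried acinar transcripts, at a median of 8.59% below and 8.64% above, and Gcg, at 5.50% and 5.23%. The lower edge of the young 2 set was thus crowded with barcodes of mixed content, and depth did not remove them, since 62 of its 100 barcodes with 2000 or more genes gave over 5% of their UMIs to acinar genes or to the other hormones together, against 0 to 28 in the other rats.

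Transcripts of other pancreatic cells were present in the beta barcodes at levels that differed between rats. The 21 measured acinar genes summed to 1552, 69506, 100314, 4031, 6823 and 545 CPM in young 1, young 2, old 1, old 2, HFHF-old 1 and HFHF-old 2. CPM is the number of UMIs in 1000000 UMIs outside the 7 genes of the rule, and all levels below are on this scale. Young 2 and old 1 were far above the rest. In old 1, acinar genes gave 18.9% of UMIs in barcodes with under 1000 genes and 16.6% in the middle range, against 0.180% in those with 2000 or more. The 18 measured immune genes, of which 1 was at 0 in every rat, summed to 593, 5926, 1875, 819, 548 and 54.5 CPM, and the 12 stromal genes to 1081, 1612, 404, 274, 683 and 4470. In the other direction, insulin UMIs gave a median of 0.111 to 0.836% of the UMIs of Ptprc-positive barcodes in 5 rats and 0% in HFHF-old 2. Insulin transcripts were thus counted in nearly every barcode of those 5 rats, since 98.6% or more of Ptprc-positive barcodes held one.

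The barcodes carried the other beta markers. Iapp stood at 5418, 4735, 7923, 2530, 1671 and 2508 CPM in young 1, young 2, old 1, old 2, HFHF-old 1 and HFHF-old 2, against 222 to 394 in alpha and 152 to 608 in PP barcodes. Slc2a2, the glucose transporter GLUT2, stood at 1696, 688, 1123, 831, 933 and 681, against 0 to 3.15 in alpha barcodes. Pdx1, the transcription factor that activates the insulin genes, stood at 362, 196, 299, 387, 426 and 382, against 0 to 5.95 in alpha and 15.6 to 27.7 in PP barcodes. The ranges did not overlap for any of these markers. G6pc2, the sixth marker given for the cell type, was not analysed here.

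Further genes of beta cell identity separated the classes in the same way. Nkx6-1, a factor that keeps the beta cell program, stood at 82.1 to 327 CPM in beta barcodes and at 0 to 0.700 in alpha barcodes. Mafa, an activator of insulin transcription, stood at 35.0, 15.9, 20.8, 4.47, 29.1 and 0 in the 6 rats and at 0 to 0.779 in alpha barcodes, and the 0 was in the rat with 4 beta barcodes. Ucn3, the peptide urocortin 3 of mature beta cells, stood at 54.5 to 260 against 25.7 to 49.4 in alpha barcodes. Glp1r, the receptor for the incretin GLP-1, stood at 67.4 to 168 against 0 to 1.05. Young 2 was the lowest of the 5 larger sets for Nkx6-1, Ucn3 and Glp1r.

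Gc, a vitamin D binding protein expressed in alpha cells, went the other way and stood at 245 to 806 CPM in beta and 1687 to 3558 in alpha barcodes. These class differences follow from how the barcodes were sorted by hormone and carry no test.

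Processing enzymes showed which endocrine functions were shared. Pcsk1, the convertase PC1/3 that cuts proinsulin, stood at 1545, 836, 1141, 666, 952 and 1118 in beta barcodes, against 0 to 12.3 in alpha and 93.1 to 218 in PP barcodes. Pcsk2, the convertase PC2, stood at 2926 to 6579 in beta and 6111 to 8876 in alpha barcodes. Slc30a8, the zinc transporter of the insulin granule, stood at 217 to 709 in beta and 268 to 558 in alpha barcodes. Abcc8 and Kcnj11, the subunits of the ATP-sensitive potassium channel, stood at 80.5 to 218 and 71.1 to 140 in beta barcodes and at 217 to 538 and 132 to 176 in alpha barcodes. Convertase Pcsk1 thus separated beta from alpha barcodes, and the ranges of Pcsk2, Slc30a8 and Kcnj11 overlapped. For Abcc8 they met through HFHF-old 2, with 8 UMIs in 4 barcodes, and the other 5 rats stood at 80.5 to 170 in beta barcodes.

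**Figure D2:**
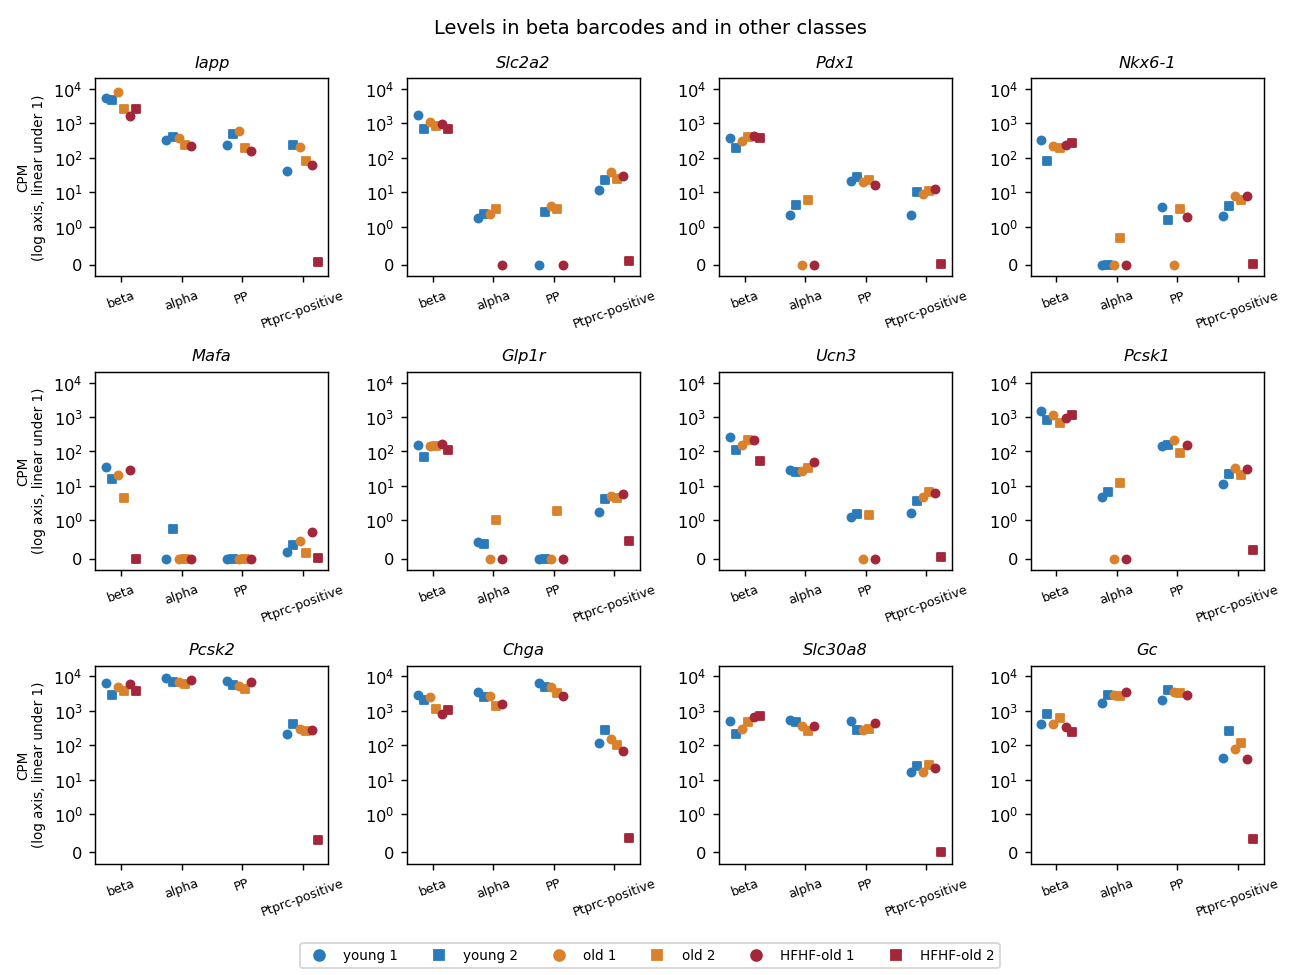
Levels of 12 genes (y, CPM outside the genes of the rule, log axis that is linear under 1) in beta, alpha, PP and Ptprc-positive barcodes, with 1 point per rat, coloured by group and with circles for replicate 1 and squares for replicate 2. Slc2a2, Pdx1, Nkx6-1, Glp1r and Pcsk1 lie higher in beta than in alpha barcodes in every rat with both classes, and Gc lies lower.

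Ins1 and Ins2 did not keep the same balance in every rat. Ins1 gave 57.1% of insulin UMIs in the beta barcodes of young 1, 57.1% in young 2, 55.3% in old 1, 46.1% in old 2, 44.6% in HFHF-old 1 and 39.2% in HFHF-old 2. As a share of all beta UMIs, Ins1 gave 43.1%, 38.4%, 37.3%, 32.5%, 25.4% and 23.4%, and Ins2 gave 32.4%, 28.9%, 30.2%, 37.9%, 31.6% and 36.3%. Both young rats and old 1 lay above 50% Ins1 and the other rats lay below, so the old rats were on different sides.

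The balance held in the deep barcodes. With 2000 or more genes, Ins1 gave 57.1%, 56.7%, 55.6%, 46.1%, 44.6% and 37.7% of insulin UMIs in young 1, young 2, old 1, old 2, HFHF-old 1 and HFHF-old 2. Ptprc-positive barcodes with under 20% insulin, which leaves out those that passed the rest of the beta rule, gave 60.1%, 58.3%, 60.3%, 45.2%, 48.1% and 37.2% Ins1. Within each rat both values lay on the same side of 50%. The insulin UMIs of both sets come from 1 preparation and 1 library per rat and are not independent. The genes are close copies, and reads that match both equally well are not counted for either, so the split is uncertain as a ratio of transcripts.

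Single barcodes varied more widely in the older rats. Over deep barcodes the median Ins1 share of insulin UMIs was 57.6%, 58.1%, 53.8%, 45.7%, 44.5% and 40.4% in young 1, young 2, old 1, old 2, HFHF-old 1 and HFHF-old 2, with SD over barcodes of 2.76, 2.13, 12.6, 7.75, 7.78 and 5.23 percentage points. Counting error alone gives 0.221 to 0.722. Without the lowest and the highest 10% of deep barcodes, the share ran from 52.6 to 60.4% in young 1, 54.7 to 60.1% in young 2, 48.6 to 69.1% in old 1, 35.5 to 53.4% in old 2 and 35.7 to 52.5% in HFHF-old 1. Old 1 held 5 deep barcodes above 75% Ins1 and the other rats none, while old 2 held 13 and HFHF-old 1 held 6 below 30%. In every rat with over 2 deep barcodes the spread was larger than counting error, and it was widest in the 3 rats of 20 months. The difference of the spread between groups was not tested.

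**Figure D3:**
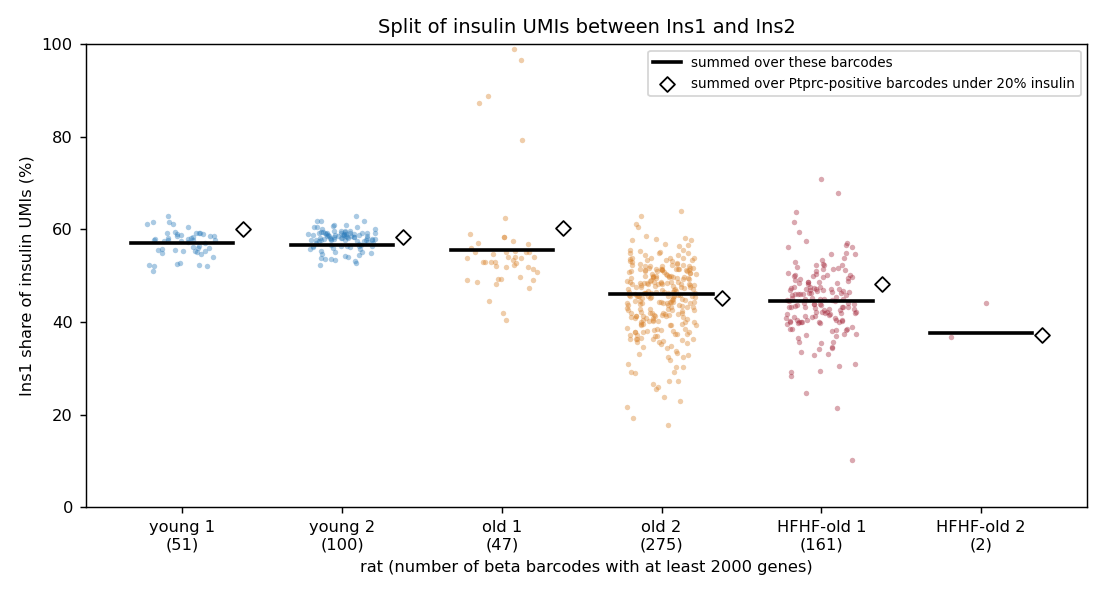
Ins1 as a percent of insulin UMIs (y) in single beta barcodes with 2000 or more genes, with 1 point per barcode, by rat, the bar giving the sum over these barcodes and the diamond the sum over Ptprc-positive barcodes with under 20% insulin. The bars stand at 57.1%, 56.7%, 55.6%, 46.1%, 44.6% and 37.7% from left to right and the diamonds at 60.1%, 58.3%, 60.3%, 45.2%, 48.1% and 37.2%, and the points of the 20-month-old rats spread further.

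Outside the genes of the rule, expression was compared between groups over rats. UMIs were summed over the beta barcodes of each rat and tested in 1 edgeR quasi-likelihood fit of 12249 genes, with a gene called where its p, adjusted by Benjamini-Hochberg over all genes tested, was under 0.05 and its fold change over 1.5. The contrast of HFHF-old with old is called the diet contrast, that of old with young the age contrast, and that of HFHF-old with young the joint contrast. HFHF-old 2, with 4 beta barcodes, was left out of the fit, so HFHF-old rests on HFHF-old 1 alone, which is assumed to vary like the young and old rats. The 2 contrasts of HFHF-old share that rat, and each pair of contrasts shares a group. The p-values measure the spread between these rats. In simulated counts the fit recovered 8.5%, 38% and 14.5% of genes with a log2 fold change of 2 in the diet, age and joint contrasts. Changes of that size can therefore go uncalled. No gene was called in the diet contrast (0% of genes tested), the age contrast (0%) or the joint contrast (0%), with smallest adjusted p of 0.0508, 0.279 and 0.0804.

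At an unadjusted p under 0.05, 404 genes differed between HFHF-old and old, with 153 higher (1.25%) and 251 lower (2.05%). Between old and young there were 447, with 154 higher (1.26%) and 293 lower (2.39%), and between HFHF-old and young 1026, with 381 higher (3.11%) and 645 lower (5.27%). DESeq2 called 7, 13 and 35 genes. In beta barcodes with 2000 or more genes, a setting chosen after the data were seen, edgeR called 6 of 11227 genes in HFHF-old against old (0.0534%), 3 in old against young (0.0267%) and 9 in HFHF-old against young (0.0802%). The counts also moved when 1 rat was left out. Without young 1 they were 3, 61 and 638, without young 2 they were 10, 0 and 0, without old 1 they were 43, 75 and 255, and without old 2 they were 34, 22 and 245. The genes called in the deep barcodes of all 5 rats are named below as called in deep barcodes, and all other values are of genes that were not called.

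The genes with the smallest p in HFHF-old against old were nearly absent from the other rats. AC142181.2 stood at 0, 0.409, 2.08, 0.235, 389 and 0 CPM in young 1, young 2, old 1, old 2, HFHF-old 1 and HFHF-old 2. Its log2 fold change against old was 8.41 ± 0.779 (SE), and in deep barcodes 8.21. Fam111a, whose product restricts viral replication and acts at replication forks, stood at 0, 2.04, 0, 0, 173 and 0. Against the old rats Fam111a was at least 355-fold higher, and 148 of the 161 deep barcodes of HFHF-old 1 held its UMIs against 0 of 47 and 0 of 275 in the old rats. LOC683849 stood at 0, 0, 2.60, 0, 237 and 0, with 7.64 ± 1.05 against old (SE), and was at least 252-fold higher than in young rats. AC142181.2, Fam111a and LOC683849 were each called in deep barcodes against old. With 1 HFHF-old rat in the fit, the low-count filter keeps a gene that passes in 1 library. These genes passed it only through HFHF-old 1, where they are high, so the calls are no test of diet.

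All of these were spread over the beta barcodes of 1 rat, and HFHF-old 1 also led in Ptprc-positive barcodes. Fam111a stood at 190 CPM in its Ptprc-positive barcodes and at 5.98 to 13.9 in those of the other rats. AC142181.2 stood at 672 there, against 0.226 to 82.7, and LOC683849 at 399, where the next were 60.1 in HFHF-old 2 and 47.0 in old 1. A difference between single rats and a difference between diets cannot be told apart with 1 rat in the fit.

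Gip, Fabp1 and Rbp2 were also high in HFHF-old 1, but through 1 barcode. Gip, the incretin hormone of intestinal K cells, had 1862 UMIs, all in HFHF-old 1, and 1857 of them (99.7%) were in a single barcode with 7902 genes and 72907 UMIs, of which 35.0% were insulin. The same barcode held 1034 of 1051 Fabp1 UMIs (98.4%) and 559 of 574 Rbp2 UMIs (97.4%), which encode the fatty acid and retinol binding proteins of intestinal epithelium. It also held 98 of 115 UMIs of Gast (85.2%), the gene of gastrin. All of Gip, Fabp1 and Rbp2 were called in deep barcodes against old, and Gip passed the low-count filter only through HFHF-old 1. The differences of Gip, Fabp1 and Rbp2 rest on that barcode, so their calls are no test of diet.

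Genes with the smallest p in the lower direction in HFHF-old against old included transcripts that were high in other cells of the old rats. AABR07060872.1 stood at 45.7, 25.3, 478, 1046, 24.4 and 27.3 CPM in beta barcodes of young 1, young 2, old 1, old 2, HFHF-old 1 and HFHF-old 2, a log2 fold change of -5.26 ± 0.842 against old (SE, adjusted p = 0.506). In Ptprc-positive barcodes of old 1 and old 2 it reached 12472 and 20843. AABR07065625.1 stood at 29.6, 42.9, 327, 287, 21.8 and 0, with 5528 and 6373 in those barcodes, and RT1-Bb, a class II antigen presentation gene, at 2.69, 10.2, 187, 40.2, 0.780 and 0, with 2234 and 1326. The part of such transcripts from other cells in these differences was not tested. Proc, the gene of protein C, stood at 5.38, 11.8, 7.29, 5.18, 0 and 0, and was at least 7.48-fold lower than in the old rats (adjusted p = 0.857).

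Kcnj3 and 4 further genes among those with the smallest p were higher in both old rats and HFHF-old 1 than in the young rats. Kcnj3, which encodes a G protein-gated inward rectifier potassium channel, stood at 9.41, 8.99, 77.0, 89.0, 180 and 327 CPM in young 1, young 2, old 1, old 2, HFHF-old 1 and HFHF-old 2. The log2 fold change was 3.10 ± 0.376 in old against young (SE, adjusted p = 0.324) and 3.90 ± 0.413 in HFHF-old against young (adjusted p = 0.0852). In deep barcodes it was called in HFHF-old against young (3.84, adjusted p = 0.0165) and missed the threshold in old against young (3.10, adjusted p = 0.057). The young rats did not overlap with any other rat, and UMIs of Kcnj3 were in 4 of 51 and 10 of 100 deep barcodes in young 1 and young 2, against 24 of 47, 126 of 275 and 126 of 161 in old 1, old 2 and HFHF-old 1.

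Gria4, a subunit of AMPA glutamate receptors, stood at 2.69, 0.817, 21.3, 69.2, 213 and 0 in young 1, young 2, old 1, old 2, HFHF-old 1 and HFHF-old 2. It was called in deep barcodes of HFHF-old against young (log2 fold change 6.98, adjusted p = 0.0201). Mdga2, a membrane protein that limits synapse formation, stood at 16.1, 9.40, 42.2, 56.7, 168 and 0 and was called in the same contrast (3.43, adjusted p = 0.0211). Both 0 values come from the rat with 4 beta barcodes. Syndig1, which acts in the development of excitatory synapses, stood at 12.1, 6.13, 67.1, 54.6, 87.6 and 81.8, with a log2 fold change of 2.83 ± 0.403 in old against young (SE, adjusted p = 0.335). AC127784.2 stood at 0, 0.409, 63.0, 37.4, 23.6 and 0 and was called in deep barcodes of old against young (6.70, adjusted p = 0.0372). HFHF-old 2, at 0 for 3 of these genes, gives no second HFHF-old value at its depth. Gria4 and AC127784.2 were near 0 in the young rats. They passed the low-count filter only through the older rats, where they are high, so their calls against young are no test of age or diet.

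**Figure D4:**
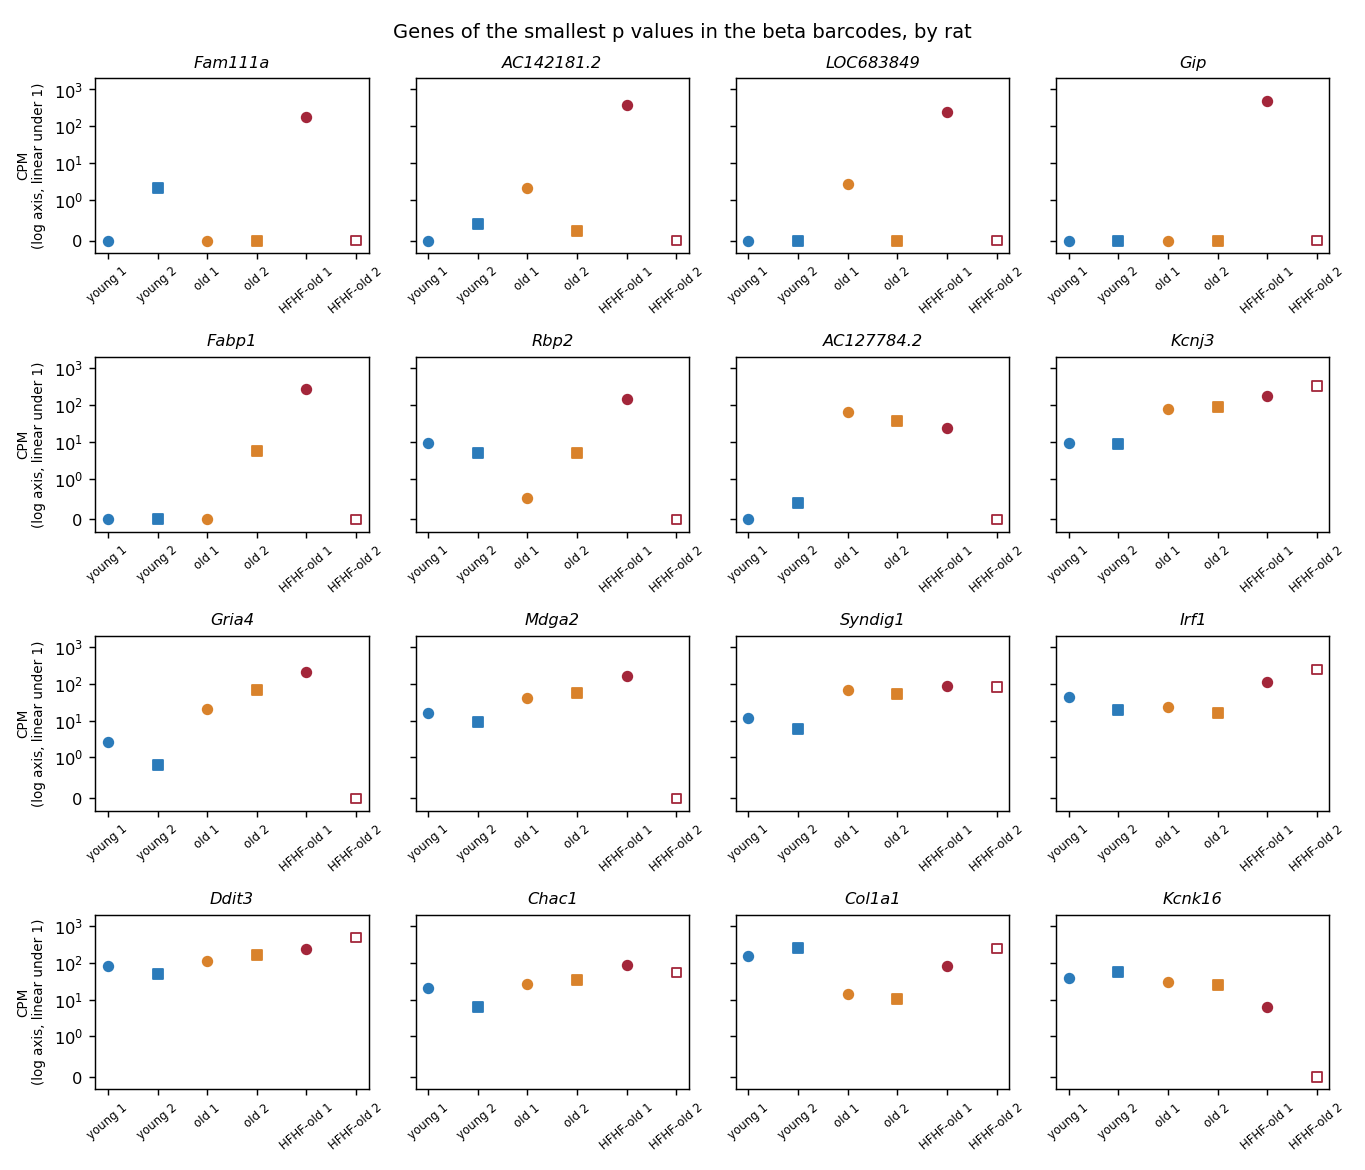
Levels of 16 named genes in beta barcodes (y, CPM outside the genes of the rule, log axis that is linear under 1) with 1 point per rat, coloured by group, the open square being HFHF-old 2, which was not in the fit. Kcnj3, Gria4, Mdga2 and Syndig1 lie lower in the young rats than in the old rats and HFHF-old 1, and Fam111a, AC142181.2, LOC683849 and Gip stand out in HFHF-old 1 alone.

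The genes with the smallest p in the lower direction in old against young were mostly collagens and other stromal genes. Col1a1 stood at 149, 246, 14.6, 10.1, 80.0 and 245 CPM in young 1, young 2, old 1, old 2, HFHF-old 1 and HFHF-old 2, and Col3a1 at 425, 480, 37.0, 16.7, 217 and 191. In deep barcodes both were called, with log2 fold changes of -3.95 and -4.31 (adjusted p = 0.0372 for each). Lum, lumican, stood at 43.0, 60.5, 9.37, 8.0, 22.3 and 81.8, and Sparc, a matrix protein, at 124, 246, 29.1, 23.1, 102 and 27.3. Of the 10 stromal genes tested, 10 were lower in old than in young, with 7 at an unadjusted p under 0.05 against 2.39% of all genes, and the median log2 fold change was -2.69. Without young 2, 7 of 9 were lower and 2 higher, beside 47.0% of all genes lower, and the median was -2.06. Outside the beta barcodes of the same libraries Col1a1 was at 1599 and 497 in the young rats, 303 and 312 in the old rats, 1092 in HFHF-old 1 and 34.9 in HFHF-old 2. Both young rats and HFHF-old 1 were thus above both old rats inside and outside the beta barcodes. The order of the young rats and the place of HFHF-old 2 differed. The part of other cells' transcripts was not tested.

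Cell division genes were few in all rats. Of 15 proliferation genes tested, 14 were lower in old than in young, beside 51.5% of all genes, and 7 at an unadjusted p under 0.05, beside 2.39%, with a median log2 fold change of -1.82. Without young 2, 11 of 13 were lower, beside 47.0% of all genes, and 2 at that level, beside 2.48%, and the median was -1.0. Top2a, a topoisomerase of dividing cells, stood at 6.72, 11.4, 1.04, 0, 4.16 and 0 CPM, Ube2c at 6.72, 13.9, 1.04, 0, 2.60 and 0, Cdkn3 at 17.5, 18.8, 0, 0.706, 0.780 and 0, and the centromere gene Cenpw at 13.4, 11.4, 0.521, 0.235, 0 and 0, in the order young 1, young 2, old 1, old 2, HFHF-old 1 and HFHF-old 2. The polycomb gene Ezh2 stood at 17.5, 13.5, 3.12, 4.94, 9.09 and 0. The young rats were the highest for each of these genes, which were picked by their p, and Cdkn3 and Cenpw are outside the list. Some other list members did not follow that order. Birc5 had 0 UMIs in young 1 and 10 in HFHF-old 1, and Ccna2 had 0 and 2. The low-count filter keeps a gene that passes in 1 library, and list members such as Ube2c passed it only through the young rats. The count of proliferation genes lower in old than in young thus partly follows from that filter.

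Counts behind these levels were small. In deep barcodes, 7 mitosis genes had 15, 92, 8, 8, 66 and 0 UMIs in all in the 6 rats, and 46.7% of the 15 in young 1 were in 1 barcode. At least 1 such UMI was in 5 of 51, 39 of 100, 5 of 47, 7 of 275 and 51 of 161 deep barcodes of young 1, young 2, old 1, old 2 and HFHF-old 1, and 5 or more in 1, 2, 0, 0 and 0. Ptprc-positive barcodes of the same rats held Top2a at 42.2 to 120 CPM. The part of their transcripts in the beta barcodes was not tested.

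The transcription factors of the beta cell did not differ by a called amount. Of 18 islet transcription factors tested, none reached an unadjusted p under 0.05 in any contrast, with median log2 fold changes of 0.44, 0.01 and 0.34 in the diet, age and joint contrasts, beside -0.05, -0.02 and -0.11 over all genes. Without young 2 the medians were 0.47, -0.41 and -0.13, with 2 genes higher at that level in the diet contrast, beside 5.81% of all genes in that fit, and 3 lower in the age contrast, beside 2.48%. In that age contrast 16 of 18 were lower, beside 47.0% of all genes. Pdx1 differed by 0.00 ± 0.541, 0.34 ± 0.444 and 0.34 ± 0.536 (SE) in those contrasts. Iapp differed by -1.98 ± 1.23, 0.05 ± 0.906 and -1.94 ± 1.22, and Slc2a2 by -0.39 ± 0.773, -0.21 ± 0.622 and -0.60 ± 0.781. These errors leave room for differences of 2-fold in either direction for Slc2a2. Iapp was lower in HFHF-old 1 than in each young and old rat, whereas the old rats, at 7923 and 2530, lay on either side of the young rats.

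Of the 12 maturity genes tested, none was called. In old against young 1 was higher and 1 lower at an unadjusted p under 0.05, beside 1.26% and 2.39% of all genes, and in deep barcodes 0 and 1. In HFHF-old against young 1 was higher and 0 lower, beside 3.11% and 5.27%. Syt4, a synaptotagmin that sets the calcium sensitivity of secretion in maturing beta cells, stood at 110, 80.1, 192, 166, 164 and 109 CPM in young 1, young 2, old 1, old 2, HFHF-old 1 and HFHF-old 2, with a log2 fold change of 0.92 ± 0.359 in old against young (SE, edgeR adjusted p = 1). It was the higher gene, which did not keep that p in deep barcodes, and both young rats lay below both old rats.

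Excitation and secretion genes showed few differences. Of 17 genes of glucose sensing and excitation, 1 passed an unadjusted p under 0.05, Kcnk16, the potassium channel TALK-1 of beta cells, which was lower in the diet and joint contrasts, where 2.05% and 5.27% of all genes were. It stood at 37.7, 55.2, 29.7, 24.5, 6.24 and 0 CPM in young 1, young 2, old 1, old 2, HFHF-old 1 and HFHF-old 2. Its log2 fold change was -2.42 ± 0.586 in HFHF-old against old (SE, adjusted p = 0.857) and -3.30 ± 0.608 in HFHF-old against young (adjusted p = 0.539). HFHF-old 1 lay below the young and old rats, and the 0 of HFHF-old 2 comes from 4 barcodes. Of the deep barcodes, 12 of 161 of HFHF-old 1 held its UMIs against 25 of 47 in old 1 and 43 of 275 in old 2.

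Of 18 exocytosis genes, Syt5 was lower and Syt7 higher in HFHF-old than in old and than in young at an unadjusted p under 0.05, where 2.05% and 5.27% of all genes were lower and 1.25% and 3.11% higher. In old against young Syt4 was higher at that level. Syt5, a synaptotagmin of dense-core granules, stood at 110, 62.9, 68.7, 36.7, 13.8 and 0 in young 1, young 2, old 1, old 2, HFHF-old 1 and HFHF-old 2, and its log2 fold change against young was -2.92 ± 0.588 (SE, adjusted p = 0.563). Syt7, the main calcium sensor of insulin release, stood at 76.6, 27.4, 52.1, 44.5, 133 and 81.8, with 1.15 ± 0.478 against old (SE, edgeR adjusted p = 0.857). HFHF-old 1 was the highest of the rats for Syt7. Of 21 hormone processing and granule genes, 14 were lower in HFHF-old than in old and 15 lower than in young, beside 53.0% and 55.5% of all genes, with medians of -0.29 and -0.44. Without old 1, 11 of 21 were lower than in old, beside 50.5% of all genes, with a median of -0.03, and without young 2 the median against young was -0.18. Chga, chromogranin A, stood at 2892, 2085, 2568, 1166, 818 and 1063, and Ptprn, the granule protein IA-2, at 523, 405, 394, 211, 196 and 54.5. For Ptprn the log2 fold change against young was -1.56 ± 0.659 (SE, adjusted p = 0.594). Old 2 was close to HFHF-old 1 for both genes. None of the 16 receptor genes passed an unadjusted p under 0.05.

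The unfolded protein response is how cells answer misfolded proinsulin in the endoplasmic reticulum. The 30 genes of this list summed to 8029, 6070, 8851, 7742, 10050 and 12239 CPM in young 1, young 2, old 1, old 2, HFHF-old 1 and HFHF-old 2, so that old 2 lay between the young rats. Of 30 genes, 24 were higher in old than in young and 22 in HFHF-old than in young, with medians of 0.20 and 0.34, beside -0.02 and -0.11 over all genes. In each of these contrasts 4 genes were higher at an unadjusted p under 0.05 (against 1.26% and 3.11% of all genes) and none lower, and they were the same 4. Against old, 18 of 30 were higher and 12 lower in HFHF-old, beside 53.0% of all genes lower. The median was 0.11, beside -0.05 over all genes. None was called. In old against young the count depended on the rat left out, with 22 of 30 higher and a median of 0.31 without young 2 but 16 of 30 and 0.05 without old 1, and 2 genes higher at that level in each case, beside 3.97% and 0.957% of all genes.

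These 4 genes belong to the branch of the response that runs through Atf4 and Ddit3. Ddit3, the factor CHOP, stood at 82.0, 49.4, 110, 165, 237 and 491 CPM in young 1, young 2, old 1, old 2, HFHF-old 1 and HFHF-old 2, with a log2 fold change of 1.09 ± 0.377 in the age contrast and 1.56 ± 0.437 in the joint contrast (SE, adjusted p = 1 and 0.594). Chac1, a glutathione-degrading enzyme, stood at 20.2, 6.13, 26.5, 33.2, 86.0 and 54.5, with 1.38 ± 0.472 and 2.59 ± 0.523 (SE, adjusted p = 1 and 0.563). Trib3, a pseudokinase induced by CHOP, stood at 13.4, 5.31, 11.5, 36.5, 59.2 and 81.8. Asns, asparagine synthetase, stood at 88.7, 36.0, 102, 125, 166 and 27.3. The old rats and HFHF-old 1 were above both young rats for Ddit3, Chac1 and Asns, while old 1 lay between the young rats for Trib3, and young 2 was the lowest of the 5 rats in the fit for each gene.

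Respiratory chain genes lay lower in HFHF-old 1. All 26 of those tested had a negative log2 fold change in HFHF-old against old and against young, beside 53.0% and 55.5% of all genes, with medians of -0.81 and -0.68. In old against young 20 of 26 were higher and the median was 0.12, and without young 2 25 of 26 and 0.50, with 3 higher at an unadjusted p under 0.05, beside 3.97% and a median of 0.05 over all genes in that fit. With all 5 rats in the fit, no single one reached an unadjusted p under 0.05. Ndufa1, a complex I subunit, stood at 449, 658, 395, 447, 268 and 245 CPM in young 1, young 2, old 1, old 2, HFHF-old 1 and HFHF-old 2, and Cycs, cytochrome c, at 138, 186, 209, 189, 118 and 81.8. Ptprc-positive barcodes of HFHF-old 1 were also the lowest of the 6 rats for Ndufa1, at 138 against 181 to 316. In deep barcodes the medians were -0.77 and -0.58. Without young 2, 18 of 26 were lower in HFHF-old than in young, beside 48.1% of all genes, with a median of -0.13. The mitochondrial share of all UMIs in deep barcodes was 5.09% in HFHF-old 1 and 1.32 to 3.01% in the other rats. Insulin gave 57.0% of the same UMIs in HFHF-old 1 and 57.7 to 75.9% in the other rats, so these shares are not on the CPM scale. The part of mitochondrial content in this difference was not tested. Members of a respiratory complex move together within a library, so their number is no measure of error.

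**Figure D5:**
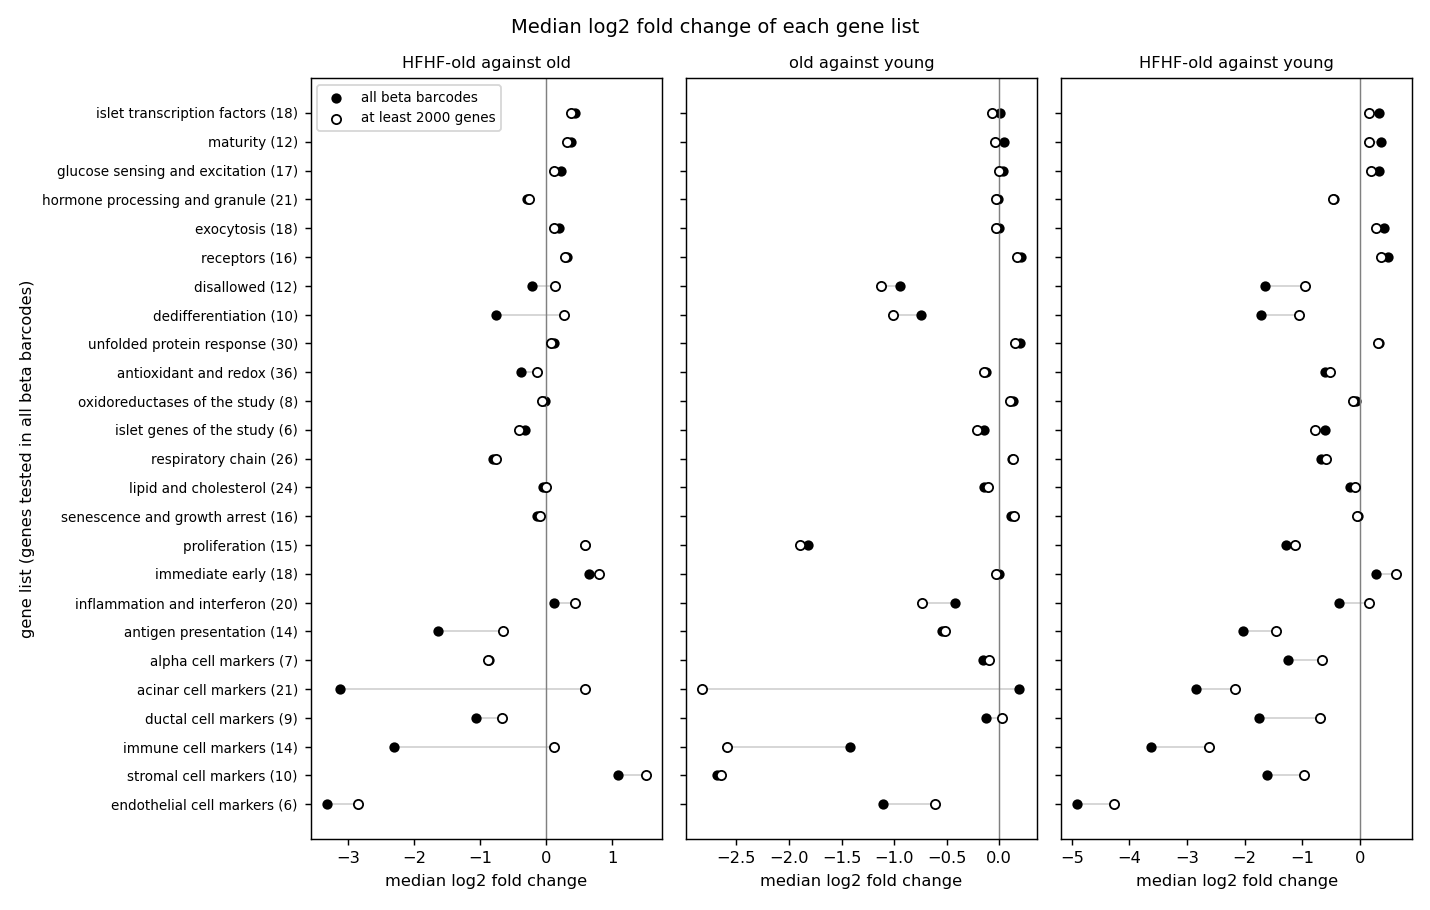
Median log2 fold change of each gene list (x, a separate scale in each panel) over its tested genes, in 1 panel per contrast, with filled points for all beta barcodes and open points for those with 2000 or more genes. The respiratory chain lies at -0.81 and -0.68 in the contrasts of HFHF-old and the stromal and proliferation lists at -2.69 and -1.82 in old against young, while the acinar list changes sides with depth.

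Among 36 antioxidant and redox genes, at an unadjusted p under 0.05, 1 was higher and 3 lower in the diet contrast, 0 and 5 in the age contrast and 2 and 5 in the joint contrast. The shares of all genes were 1.25% and 2.05%, 1.26% and 2.39%, and 3.11% and 5.27%. The medians were -0.38, -0.13 and -0.61, with 23, 20 and 25 of 36 lower, and without young 2 they were -0.32, 0.31 and -0.16. Gpx3, the secreted glutathione peroxidase, stood at 284, 232, 70.8, 146, 56.6 and 2099 CPM in young 1, young 2, old 1, old 2, HFHF-old 1 and HFHF-old 2, so that the HFHF-old rats were at opposite ends. In HFHF-old 2 this was 77 UMIs among 4 beta barcodes, 1 of which held 3 or more UMIs of stromal, endothelial or immune genes. For Gpx3 the part of other cells' transcripts was not tested. The log2 fold change of Gpx3 in HFHF-old against young was -2.51 ± 0.605 (SE) without HFHF-old 2 and 1.28 with it. Mt3, a metallothionein, stood at 26.9, 18.4, 6.25, 1.41, 0.520 and 0, with -2.67 ± 0.738 in old against young (SE, adjusted p = 1). Of the 8 oxidoreductases that the study singled out, a list not independent of these rats, Foxred2 passed an unadjusted p under 0.05, at 17.5, 15.9, 2.60, 3.53, 8.32 and 27.3, with -2.44 ± 0.536 in old against young (SE, adjusted p = 1). The study named Foxred2 for PP cells, where it was higher in HFHF-old than in old rats. In beta barcodes the young rats were above the old rats for Gpx3, Mt3 and Foxred2.

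Immediate early genes were mostly higher in HFHF-old 1 than in the old rats. Of 18 tested, 3 were lower in the diet contrast, beside 53.0% of all genes, and 15 were higher, with a median of 0.65 and 2 at an unadjusted p under 0.05 (1.25% of all genes). In the joint contrast 12 were higher and 2 at that level (3.11% of all genes), with a median of 0.29. In the age contrast 16 of 20 inflammation and interferon genes were lower, beside 51.5% of all genes, and 2 at an unadjusted p under 0.05, beside 2.39%. The median was -0.42, and it was -0.73 in deep barcodes. Without young 2, only 11 of 20 were lower in the age contrast, beside 47.0% of all genes, and the median was -0.30. In the contrasts of HFHF-old this list did not move 1 way, with 11 of 20 higher in the diet contrast and 9 of 20 in the joint contrast, at medians of 0.11 and -0.36. In deep barcodes these medians were 0.43 and 0.16, and without old 1, 15 of 21 were higher and 6 lower in the diet contrast, beside 50.5% of all genes lower. Atf3, a stress-induced factor, stood at 41.7, 22.9, 32.3, 31.3, 100 and 436 CPM in young 1, young 2, old 1, old 2, HFHF-old 1 and HFHF-old 2, and Hsph1, a heat shock protein, at 120, 33.5, 105, 102, 450 and 1009. Irf1, an interferon response factor, stood at 43.0, 19.6, 22.9, 16.5, 111 and 245, with a log2 fold change of 2.19 ± 0.444 against old (SE, adjusted p = 0.857). Both HFHF-old rats lay above all other rats for these 3 genes. The values of HFHF-old 2 rest on 16, 37 and 9 UMIs of Atf3, Hsph1 and Irf1 among 4 beta barcodes. Ptprc-positive barcodes of HFHF-old 1 were also the highest of the 6 rats for Hsph1, at 630 against 39.4 to 155, and for Atf3, at 619 against 51.5 to 286. Mitochondrial genes gave 5.09% of all UMIs in the deep beta barcodes of HFHF-old 1 and 1.32 to 3.01% in the other rats. Insulin gave 57.0% of the same UMIs in HFHF-old 1 and 57.7 to 75.9% in the other rats, so these shares are not on the CPM scale. Of the barcodes of HFHF-old 1, 733 were over the 25% mitochondrial limit, against 109 to 230 in the other rats. The part of cell quality and of dissociation, to which immediate early genes also respond, was not tested.

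Of 24 lipid and cholesterol genes, at an unadjusted p under 0.05, 1 was higher and 2 lower in the diet contrast, 1 and 0 in the age contrast and 2 and 3 in the joint contrast, beside 1.25% and 2.05%, 1.26% and 2.39%, and 3.11% and 5.27% of all genes. Lpl, lipoprotein lipase, stood at 48.4, 47.0, 38.5, 40.2, 18.4 and 600 CPM in young 1, young 2, old 1, old 2, HFHF-old 1 and HFHF-old 2. Its log2 fold change was -1.41 ± 0.429 in the diet contrast and -1.72 ± 0.439 in the joint contrast (SE, adjusted p = 0.857 and 0.594), and 1.69 and 1.38 with HFHF-old 2 in the fit, whose 22 UMIs of Lpl were in 1 barcode. Pdk4, a kinase that turns off pyruvate oxidation, stood at 1.34, 2.04, 6.77, 16.9, 14.3 and 0 in young 1, young 2, old 1, old 2, HFHF-old 1 and HFHF-old 2, with a log2 fold change of 2.58 ± 0.743 in old against young (SE, adjusted p = 1). Of 16 senescence and growth arrest genes, Gdf15, a stress-induced cytokine, stood at 10.8, 8.17, 23.4, 21.4, 23.6 and 191, with 1.23 ± 0.393 (SE, adjusted p = 1). Median log2 fold changes of the growth arrest list were -0.14, 0.11 and -0.03 in the diet, age and joint contrasts, and in the age contrast 0.25 without young 2 and 0.35 without old 1. The young rats were the lowest for Gdf15, and for Pdk4 they were the lowest of the 5 rats in the fit.

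Some lists of other cells and of genes that beta cells normally hold low depended on depth or on young 2. The acinar list had medians of -3.12, 0.19 and -2.84 in the diet, age and joint contrasts over all beta barcodes, and 0.58, -2.83 and -2.16 in deep barcodes, so its direction depended on depth. Without young 2 they were -3.04, 5.09 and 2.14 over all beta barcodes. In the diet contrast the antigen presentation and endothelial lists kept their direction. Their medians were -1.64 and -3.33 over all beta barcodes, -0.66 and -2.85 in deep barcodes, and -1.35 and -3.35 without young 2. HFHF-old 1 held 1 UMI of Aqp1 and at most 8 of any endothelial gene, so these genes passed the low-count filter only through other rats. The lower values of the endothelial list thus partly follow from that filter. The immune list in the diet contrast went from -2.31 over all beta barcodes to 0.12 in deep barcodes. In the joint contrast, where 55.5% of all genes were lower and 5.27% at an unadjusted p under 0.05, 14 of 14 tested immune genes were lower and 7 at that level, 14 of 14 antigen presentation genes and 3, and 12 of 12 genes usually silent in beta cells and 3, with medians of -3.63, -2.03 and -1.64. Without young 2, 7 of 13 immune genes were lower and 0 at that level, 13 of 15 antigen presentation genes and 0, and 6 of 11 silent genes and 2, with medians of -0.41, -0.27 and -0.05, beside a median of 0.03 over all genes, of which 48.1% were lower and 1.90% at that level. Hbb, a haemoglobin gene, had 373 UMIs in young 2 and 0 in young 1 and both HFHF-old rats, so its difference rests on young 2. Of 10 genes of dedifferentiation, 2 were higher in HFHF-old than in old at an unadjusted p under 0.05, beside 1.25% of all genes, while 7 were lower. Gast was 1 of them, and most of its UMIs were in the barcode that held Gip.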

How the data were processed

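Gene counts in single cells were analysed from 6 libraries, 1 per rat, with groups taken from the labels. The authors deposited filtered matrices of UMI counts per gene and barcode, made with Cell Ranger on build Rnor_6.0 per the submitters' processing notes; the matrix headers name cellranger-5.0.0. The values are raw counts, so depth differs between rats and barcodes, reads that match Ins1 and Ins2 equally are lost, and free RNA is counted. No annotation of cells was used, and barcodes were sorted by the transcript rule alone. The members and gene lists were chosen with earlier results of these data known.

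Counts were summed per rat over beta barcodes, without Ins1, Ins2, Gcg, Ppy, Pyy, Sst and Ptprc, for rats with at least 10 beta barcodes. They were tested with edgeR 4.0.16 (TMM, filterByExpr, quasi-likelihood) in R 4.3.3, in 1 fit with a mean per group, Benjamini-Hochberg adjustment over all genes tested and the fold limit of 1.5 given by the study's methods. The SE of a log2 fold change is its size divided by the square root of F. Identifiers that share a symbol were kept apart. Shares of barcodes were compared with exact permutation tests over rats, with exact binomial intervals (scipy 1.17.1). A fold against a group at 0 used a floor of 3 counts over the group. Shares of barcodes with a UMI are given without thinning to a common depth. The code was tested on simulated counts with 200 changed genes. At a log2 fold change of 1 it recovered 0%, 0.5% and 0% of them in the diet, age and joint contrasts. At 2 it recovered 8.5%, 38% and 14.5%, and at 4 it recovered 83.5%, 90.5% and 84%.

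The text names the given markers, the 5 genes with the smallest p in each direction and contrast where fewer than 5 were called, up to 4 genes of each list with the smallest p, and genes of high level. The genes called in barcodes with at least 2000 genes were added after the data were seen, and levels of list genes by class describe the sorting. Alternatives were DESeq2 1.42.0, RLE normalization, other filters and limits, leaving out rats, and a replicate block. G6pc2 was not analysed here, and some genes that the rule names are not reported here. No doublet caller was run, and the alternatives that leave out the top 1% of barcodes by gene number, or barcodes with transcripts of other cells, stand in for it. The 2 replicate numbers of young and old rats were checked for pairing, and the deviations of same-numbered rats had a correlation of -0.171 over 12249 genes, so the numbers were not taken to pair rats. No column of the authors' own comparisons was used.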

Additional observations from a re-analysis of the deposited data

How the results depend on the processing

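The number of genes called, 0 in each contrast, depended on the settings. In the diet, age and joint contrasts, DESeq2 called 7, 13 and 35 genes, edgeR without the filter on low counts 158, 219 and 605, and edgeR with at least 1 barcode per rat, which brings in HFHF-old 2, 1, 5 and 1. A limit of 30% insulin gave 5 genes in HFHF-old against old and 7 in HFHF-old against young, at least 1000 genes 3 and 2, and at least 2000 genes, chosen after the data were seen, 6, 3 and 9. Leaving out the top 1% of barcodes, or fitting only the groups compared, gave 1 and 13 in HFHF-old against old. Leaving out 1 rat gave 3 to 43, 0 to 75 and 0 to 638, in that order. Without young 1 the counts were 3, 61 and 638, without young 2 they were 10, 0 and 0, without old 1 they were 43, 75 and 255, without old 2 they were 34, 22 and 245, and without HFHF-old 1 old against young had 0; where 1 rat was left in a group, it was assumed to vary like the others. The cause of these shifts was not tested.

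The same replicate number did not show pairing of young and old rats, and with a replicate block 0, 0 and 0 genes were called. With the numbers of the old rats crossed, chosen after the data were seen, 44 were called in old against young.

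Beta barcodes were 934 with at least 1000 genes and 322 with transcripts of other cells left out. As a mean share of all beta UMIs, Ins1 gave 36.1% in young rats at a 10% insulin limit and 46.6% with those left out. In HFHF-old rats it gave 27.2% with those left out. The Ins2 shares of all beta UMIs were 27.2%, 35.1% and 39.6%. As a share of insulin UMIs, Ins1 gave 57.1% and 57.2% in young 1 and young 2 at the 10% limit, and 58.1% and 56.1% with those left out. The Iapp share of young rats was 0.118% at a 10% limit, 0.147% at 30%, 0.126% without the top 1% and 0.128% with transcripts of other cells left out.

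Of 154 fold changes of named genes under 2682 alternatives, 2293 kept direction and side of the threshold, 362 passed it and 27 changed direction, with none of those called at the settings of the report. For Iapp in old against young the value was -0.16 at 30% insulin, -0.14 with transcripts of other cells left out, -0.19 with the block and -0.19 with it crossed, from -1.06 (without old 1) to 0.67 as 1 rat was left out, also below 0 without young 1 (-0.07), and -0.10 with at least 2000 genes. For Slc2a2 it was 0.04 at 10% insulin, 0.07 with those transcripts left out, from -0.60 to 0.28 (without young 1) as 1 rat was left out, also above 0 without old 2 (0.01), and 0.01 with Ptprc-positive barcodes kept, and for Pdx1 it was -0.61 with those transcripts left out. AC142181.2 in old against young was -0.02 without the top 1% and from -0.47 (without old 1) to 4.38 as 1 rat was left out, and Proc from -1.19 to 0.38 (without young 2). Without the top 1%, Rbp2 was -0.91 in HFHF-old against young and Gast -0.63 in HFHF-old against old. With at least 1 barcode per rat, Abca8a was 1.87 and 1.11, Lpl 1.69 and 1.38 against old and young, Gpx3 1.28 against young and Txnip 0.39 against old. In HFHF-old against young, leaving out 1 rat gave -5.03 to 0.59 for Rbp4, -6.39 to 2.59 for Aqp1 and -6.31 to 4.40 for an Hba-a2 gene, each above 0 without young 2. The cause was not tested.

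With transcripts of other cells left out, only 3 rats remained and the age contrast gave 0 genes. Without HFHF-old 1 its contrasts were not run. Depth limits the shallow rats and HFHF-old 2 most, and the fit of the report had 2 residual degrees of freedom, the alternatives 1 to 3.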

Other observations

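Several transcripts outside the rule were abundant in the beta barcodes of every rat. Resp18, a secretory protein of endocrine cells, stood at 5529, 7809, 6153, 9855, 4485 and 4279 CPM in young 1, young 2, old 1, old 2, HFHF-old 1 and HFHF-old 2, and at 7022 to 18750 in alpha and PP barcodes. Fth1, the ferritin heavy chain, stood at 3870, 6557, 7499, 5883, 5094 and 2562. AC134224.3 stood at 18255 to 32707 in beta barcodes and at 8906 to 14676 in Ptprc-positive barcodes of the same rats.

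The barcodes that the rule set aside for a Ptprc UMI were 27, 473, 84, 242, 111 and 0 in young 1, young 2, old 1, old 2, HFHF-old 1 and HFHF-old 2. They held a median of 1 Ptprc UMI in each of the 5 rats that had any.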
